A study of Mus musculus with 18 samples.

Results

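The 44 genes described here are a named list of mouse imprinted genes from 21 imprinted domains, out of 49939 genes with a position in the RefSeq table of GRCm38.p6, the assembly that mm10 stands for. All 44 were found in that table, 37 as protein-coding genes and 7 as noncoding RNA genes. A gene was called marked in a library when at least 1 bp of an H3K27me3 peak lay within its window, the gene span extended by 1 kb at each end. The covered share is the percent of that window lying under peaks.

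H3K27me3 was profiled by CUT&Tag, in which an antibody brings a transposase to the mark so that the DNA beside it is cut and tagged. Each library came from 1 headfold, the anterior part of the embryo that forms the brain, at embryonic day 8.5. Every embryo was Gulo-/-: Gulo encodes the oxidase that mice need to make vitamin C, so these animals depend on what they are given. The 4 groups were 129 with vitamin C, 129 without vitamin C, B6 with vitamin C and B6 without vitamin C, where 129 and B6 are the genetic backgrounds, "with" means 3.3 g/l vitamin C in the drinking water and "without" means none. Of the 3 libraries of a group, 2 came from females and 1 from a male. One pregnancy code is common to the 3 headfolds of B6 with vitamin C. Library numbers run with the background, so background and library preparation cannot be told apart. A headfold holds several cell types and both parental chromosomes, and the peak lists do not separate them: a peak at an imprinted gene may lie on either allele or on both. Of the other samples, 4 IgG controls and 2 further B6 libraries were not analysed here.

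In an imprinted gene only the copy from the mother or only the copy from the father is expressed in some or all tissues. In most imprinted domains a control region that carries DNA methylation on a single parental chromosome sets this difference, often through a long noncoding RNA or an insulator. H3K27me3, the mark laid down by Polycomb repressive complex 2, is found at silent developmental genes. In imprinted domains it can lie on the silent allele, spread along a domain silenced by a long noncoding RNA, or itself carry the imprint, as is known for Sfmbt2 and Gab1.

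The lists held 748 to 4726 peaks. Those of 129 without vitamin C replicate 2 (1388 peaks) and B6 without vitamin C replicate 2 (748 peaks) were the shortest, and those of B6 with vitamin C replicate 2 and B6 without vitamin C replicate 1 had the narrowest peaks, with median widths of 1.41 and 1.32 kb. The number of reads behind each list is unknown, and a list holds only peaks above its caller's threshold, so a gene with no peak is a gene with no called peak and not a gene shown to lack the mark. Markers of other tissues were often marked: 9 of 10 trunk and tail markers, 6 of 10 heart markers, 6 of 10 trophoblast markers and 2 of 10 blood and endothelium markers had a peak in at least 10 of the 12 libraries. Of 10 anterior neural plate markers 7 did so as well, among them Pax6, Rax, Lhx2 and En1 in 12 libraries, whereas Otx2 was marked in 3, Sox2 in 2 and Hesx1 in 0. In a headfold these markers cannot tell a gene silent in some cells from a gene silent in all of them.

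Of the 44 imprinted genes, 8 had a peak in 10 or more of the 12 libraries. They were Dio3, Rasgrf1 and Slc22a3 in 12, Ascl2, Dlk1 and Zdbf2 in 11, and Kcnq1 and Sfmbt2 in 10. Igf2 was marked in 9 libraries, Phlda2 in 8, Grb10 in 7, Cdkn1c, Plagl1 and Gnas in 4 each, and Inpp5f in 1. The other 29 genes had no called peak in any library. Over all genes of the table, 3.56% were marked in at least 10 libraries. All 8 of these imprinted genes are protein-coding, which makes 21.6% of the 37 coding members, beside 5.93% of all 21883 coding genes. At least 1 library marked 15 of the 37 (40.5%), beside 20.2% of all coding genes. A longer gene offers a longer window, and the members were longer than coding genes in general, with a median of 38.9 against 17.2 kb. Among the 6153 coding genes at least as long as the median member, 6.53% were marked in at least 10 libraries, beside 5 of the 19 coding members of that length.

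**Figure D1:**
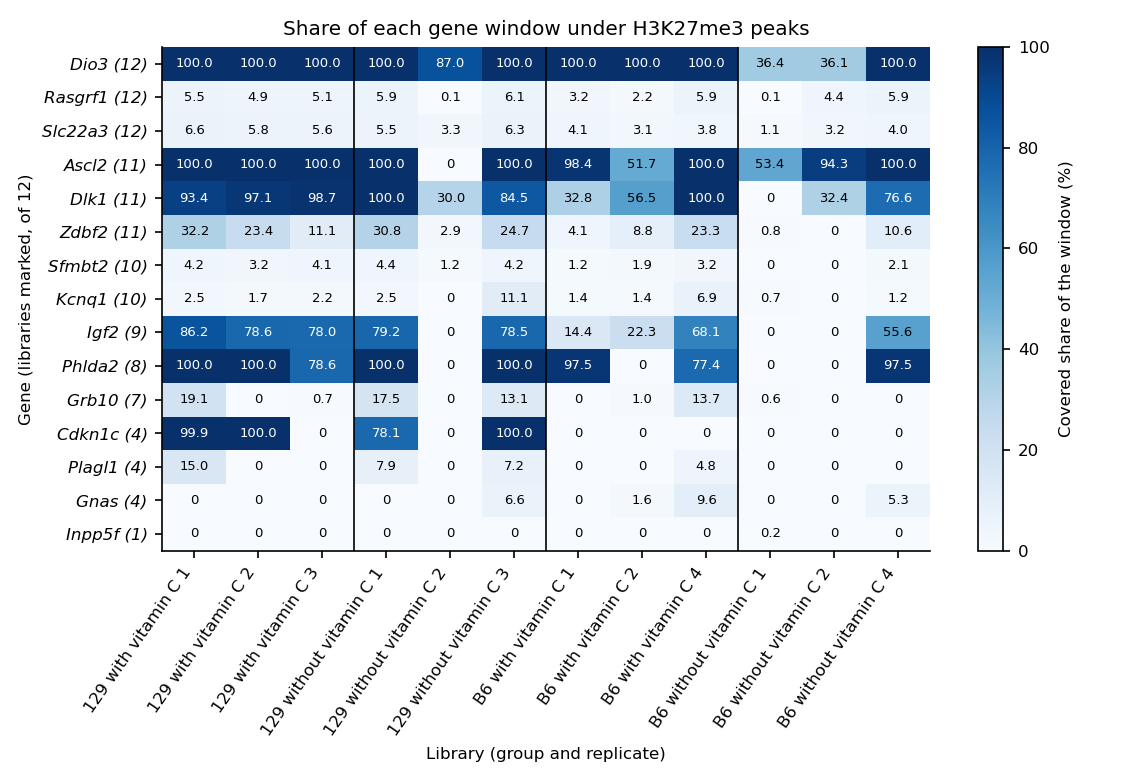
Covered share of the window, in percent, of the 15 imprinted genes marked in at least 1 library (rows, with the number of libraries marked) in each of the 12 libraries (columns, grouped by background and vitamin C). Dio3, Ascl2, Dlk1, Phlda2 and Igf2 reach 86.2% to 100% in their highest libraries, and the column of B6 without vitamin C replicate 2 has 5 marked genes.

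By library, the imprinted genes with a peak numbered 13, 11 and 11 in 129 with vitamin C and 13, 6 and 14 in 129 without it. In B6 they numbered 10, 11 and 13 with vitamin C and 8, 5 and 11 without. The counts of 6 and 5 belong to the shortest lists, and the ranges of the diet groups overlap in both backgrounds. In every one of the 12 libraries the coding members were marked more often than coding genes in general, from 2.05 to 4.54 times as often. The 8 most marked genes were all present in 9 libraries, 6 of them in 129 without vitamin C replicate 2 and in B6 without vitamin C replicate 1, and 5 in B6 without vitamin C replicate 2.

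**Figure D2:**
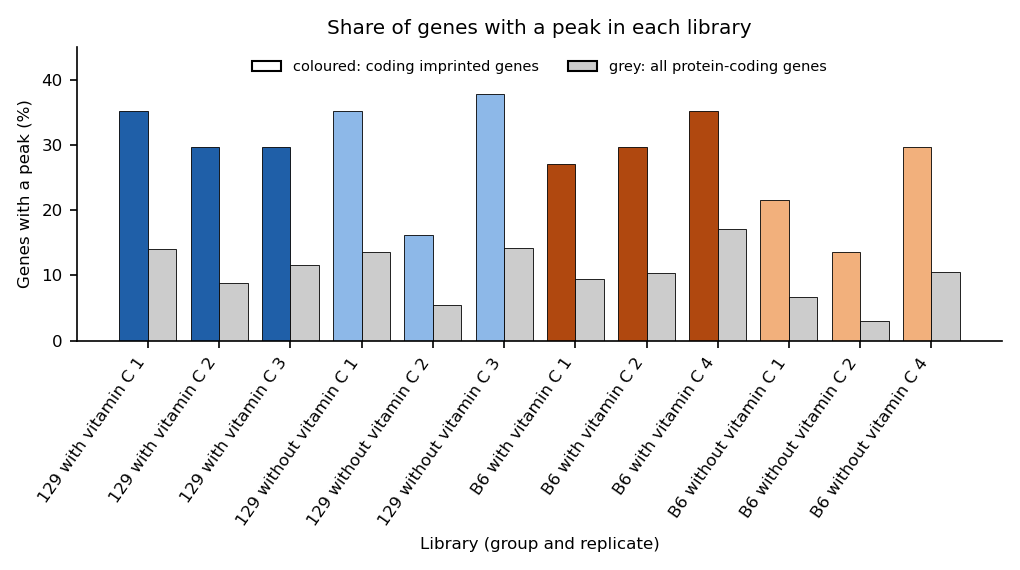
Percent of genes with a peak in each library, for the 37 coding imprinted genes (coloured by group) and for all 21883 protein-coding genes (grey). The coloured bar is the taller in each of the 12 libraries, and both bars are lowest in B6 without vitamin C replicate 2, at 13.5% and 2.97%.

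The Kcnq1 domain on chromosome 7 holds 7 of the genes within 538 kb, and peaks there formed separate islands. On the paternal chromosome its long noncoding RNA Kcnq1ot1 is known to silence neighbouring genes in cis, over a wider stretch in the placenta than in the embryo. Ascl2, a basic helix-loop-helix factor that the trophoblast needs and that is silent in most embryonic tissue, lies at chr7:142966822-142969264. Its window was covered to 100% in 3 of 3 libraries of 129 with vitamin C and, in 129 without it, to 100%, 0% and 100%. In B6 its covered share was 98.4%, 51.7% and 100% with vitamin C and 53.4%, 94.3% and 100% without. The library at 0% was the short list of 129 without vitamin C replicate 2, and the other 11 lay above 50%. The merged region spanned chr7:142961871-142974956 and held no other gene.

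Tssc4 and Cd81, which are imprinted in the placenta and lie between Ascl2 and Kcnq1, had no peak in any library. The stretch just before the start of Ascl2 was under a peak in 10 libraries and that of Cd81 in 0, and the pair is shown here as the nearest neighbours in the domain that differ in this way. Each sequence is the 250 bases before the start site in the RefSeq promoter table of GRCm38.p6, read 5′ to 3′ along the gene. Capitals mark the CG dinucleotides, the places where vertebrate DNA is methylated. The Ascl2 stretch lies on the minus strand at chr7:142969265-142969514 and holds 19 CG. The Cd81 stretch lies on the plus strand at chr7:143052500-143052749 and holds 16.
Ascl2: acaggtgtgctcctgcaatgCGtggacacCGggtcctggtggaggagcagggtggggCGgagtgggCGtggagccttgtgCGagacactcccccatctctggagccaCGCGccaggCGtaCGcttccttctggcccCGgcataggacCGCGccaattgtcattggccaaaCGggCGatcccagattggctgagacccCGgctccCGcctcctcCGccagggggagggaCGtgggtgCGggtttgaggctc
Cd81: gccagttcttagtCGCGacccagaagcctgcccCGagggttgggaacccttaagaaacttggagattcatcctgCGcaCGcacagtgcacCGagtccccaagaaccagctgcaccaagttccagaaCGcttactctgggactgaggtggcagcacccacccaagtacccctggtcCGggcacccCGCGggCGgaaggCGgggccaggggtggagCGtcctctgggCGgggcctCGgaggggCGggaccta

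Kcnq1, a potassium channel gene of 320 kb at chr7:143106877-143427050, had its recurrent peak at the low-coordinate end. The region chr7:143094287-143114038, which also covers part of Trpm5, was called in 10 libraries, with peaks up to 19.8 kb wide. A further 7 stretches inside the gene were each called in 1 to 3 libraries, and their peaks ranked low within their lists, at percentiles of 2.71 to 23.7 of total signal. No peak of any library touched the Kcnq1ot1 window. Since most of the gene lies between these places, the covered share of Kcnq1 was small. It was 2.5%, 1.7% and 2.2% in 129 with vitamin C and 2.5%, 0% and 11.1% in 129 without it. In B6 it was 1.4%, 1.4% and 6.9% with vitamin C and 0.7%, 0% and 1.2% without it. The highest values, 11.1% and 6.9%, belong to the libraries with the most of the further stretches, with 6 and 4 peaks in the window.

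Cdkn1c, an inhibitor of cyclin-dependent kinases that restrains growth, was marked in 4 libraries, all of the 129 background. The gene's window was covered to 99.9%, 100% and 0% in 129 with vitamin C, 78.1%, 0% and 100% in 129 without it, and 0% in all 6 libraries of B6. The gene lies at chr7:143458339-143461059, and the stretch beside it was marked more widely. The region chr7:143430568-143470758 held a peak in 10 libraries, 5 of each background. In 4 of the 6 B6 libraries the nearest peak on the low-coordinate side ended 7.71 to 11.2 kb from the gene. In B6 with vitamin C replicate 4 a peak on the high-coordinate side began 1.43 kb from the gene, just outside the window of 1 kb. The covered length of the whole region was 17.3 ± 8.30 kb in 129 with vitamin C, 13.6 ± 13.6 kb in 129 without it, 8.84 ± 9.37 kb in B6 with vitamin C and 2.48 ± 3.49 kb in B6 without it (SD, n = 3 each).

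Phlda2, which restrains placental growth and lies at chr7:143501545-143503145, was marked in 5 libraries of 129 and 3 of B6. Its covered share was 100%, 100% and 78.6% in 129 with vitamin C and 100%, 0% and 100% in 129 without it. In B6 it was 97.5%, 0% and 77.4% with vitamin C and 0%, 0% and 97.5% without it. The window was thus either mostly covered or free of peaks, and the 4 libraries at 0% are the short lists and the lists of narrow peaks. Its region, chr7:143494240-143506272, also covers part of the transporter gene Slc22a18.

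**Figure D3:**
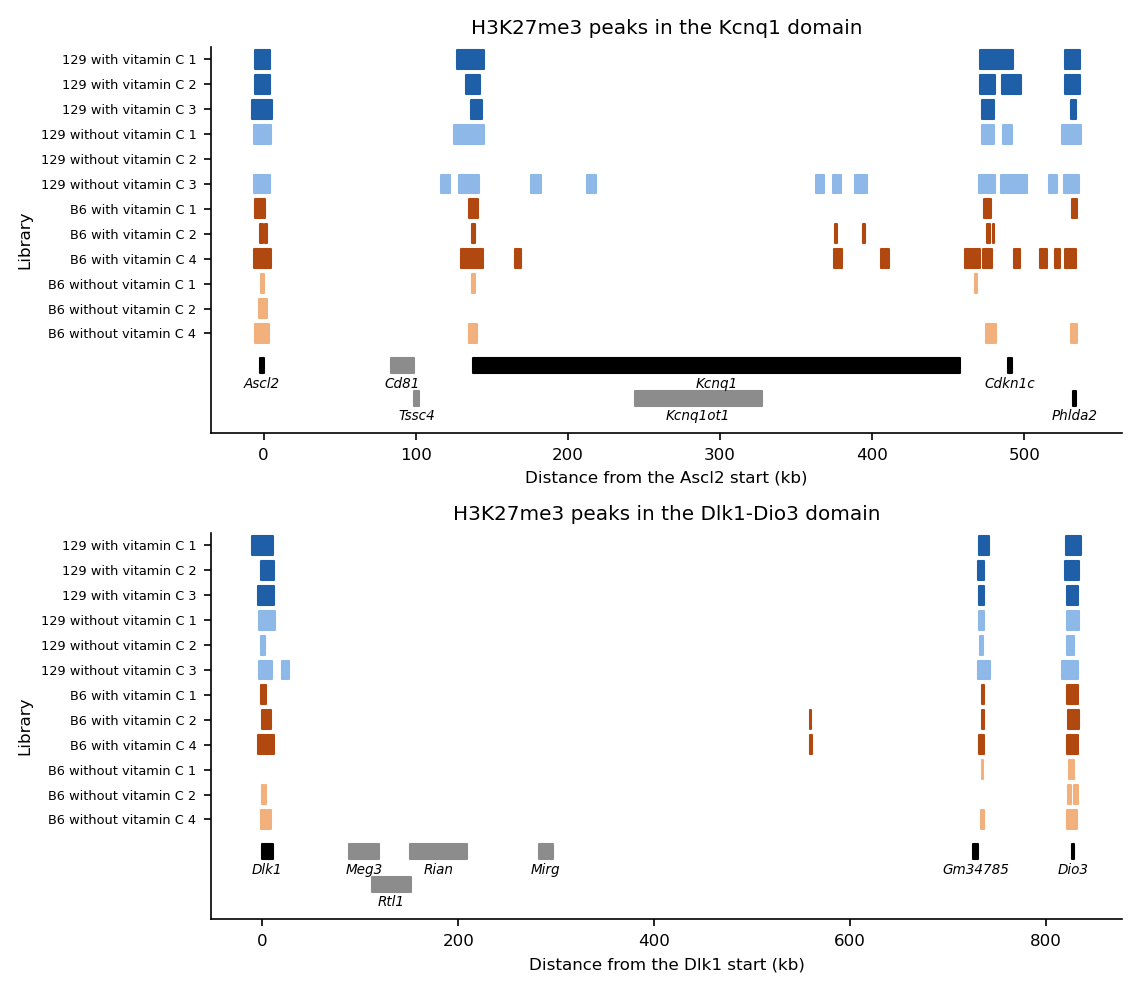
Peaks of each library (rows, coloured by group) along the Kcnq1 domain, as distance in kb from the Ascl2 start, and along the Dlk1-Dio3 domain, as distance from the Dlk1 start. Genes are drawn below, in black where a peak touches the window in at least 1 library and in grey where none does. Kcnq1ot1, Meg3, Rtl1, Rian and Mirg are among the grey genes, and the peaks of different libraries stack at the same places.

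In the neighbouring Igf2-H19 domain, Igf2 was marked in 9 libraries and H19 in 0. Igf2 is a paternally expressed growth factor of the fetus, and H19 is the maternally expressed noncoding RNA gene 72.6 kb from it. The covered share of the Igf2 window was 86.2%, 78.6% and 78.0% in 129 with vitamin C and 79.2%, 0% and 78.5% in 129 without it. In B6 it was 14.4%, 22.3% and 68.1% with vitamin C and 0%, 0% and 55.6% without it. The 5 marked libraries of 129 all lay above the highest of B6. The region was chr7:142652257-142668795, over the gene at chr7:142650768-142666816 with Igf2os and Mir483, and it took in all 4 listed starts of Igf2. Without strand information the peaks cannot be assigned to Igf2 or to its antisense gene Igf2os.

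The Dlk1-Dio3 domain on chromosome 12 was marked at its ends. Dlk1, a paternally expressed noncanonical ligand of the Notch pathway, and Dio3, the deiodinase that inactivates thyroid hormone, lie 816 kb apart. Between them are the maternally expressed RNA genes Meg3, Rian and Mirg and the retrotransposon-derived gene Rtl1, none of which had a peak in any library. Dio3, at chr12:110279230-110281097, was covered to 100% in 3 of 3 libraries of 129 with vitamin C and of B6 with vitamin C. Without vitamin C its covered share was 100%, 87.0% and 100% in 129 and 36.4%, 36.1% and 100% in B6. The 3 libraries under 100% were the short lists and B6 without vitamin C replicate 1, a list of narrow peaks. Its region, chr12:110269470-110288092, also holds Dio3os and Mir1247, so the peaks cannot be assigned to Dio3 alone.

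Dlk1, at chr12:109452485-109463336, was covered to 93.4%, 97.1% and 98.7% in 129 with vitamin C and to 100%, 30.0% and 84.5% in 129 without it. In B6 its covered share was 32.8%, 56.5% and 100% with vitamin C and 0%, 32.4% and 76.6% without it. The ranges of the diet groups overlap within each background, and 129 with vitamin C lay wholly above B6 without it. Another island of the domain lay beside Gm34785, a gene model 95.6 kb from Dio3, which was named after its values were seen. Gm34785 ended 730.8 kb from the Dlk1 start, and the island's peaks began at 730.4 to 733.0 kb in 129 and 731.9 to 735.0 kb in B6. The B6 peaks thus lay outside the window of Gm34785. The region of the island, chr12:110183186-110195332, held a peak in 11 libraries, with a median covered length of 4.33 kb.

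The starts of the marked genes are set here beside those of RNA genes of the same domain that were under no peak. The Dlk1 stretch (plus strand, chr12:109452573-109452822) was under a peak in 11 libraries and holds 8 CG. The Dio3 stretch (plus strand, chr12:110278980-110279229) was under a peak in 10 and holds 21. The stretch before the first listed start of Meg3 (plus strand, chr12:109540746-109540995) and that of Mirg (plus strand, chr12:109734731-109734980) were under a peak in 0 and hold 10 each. The second listed start of Meg3 and that of Rian, not shown, were under a peak in 0 as well and hold 0 CG.
Dlk1: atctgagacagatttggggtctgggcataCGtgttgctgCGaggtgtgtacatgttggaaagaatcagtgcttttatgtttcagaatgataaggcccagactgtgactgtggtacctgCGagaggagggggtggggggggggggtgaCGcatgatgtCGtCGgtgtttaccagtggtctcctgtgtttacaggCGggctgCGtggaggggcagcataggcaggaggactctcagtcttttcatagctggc
Meg3: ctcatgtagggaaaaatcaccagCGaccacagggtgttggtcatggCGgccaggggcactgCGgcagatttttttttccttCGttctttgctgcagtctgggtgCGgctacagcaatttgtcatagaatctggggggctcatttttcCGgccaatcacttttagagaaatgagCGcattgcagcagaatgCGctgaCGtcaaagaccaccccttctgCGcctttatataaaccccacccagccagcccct
Dio3: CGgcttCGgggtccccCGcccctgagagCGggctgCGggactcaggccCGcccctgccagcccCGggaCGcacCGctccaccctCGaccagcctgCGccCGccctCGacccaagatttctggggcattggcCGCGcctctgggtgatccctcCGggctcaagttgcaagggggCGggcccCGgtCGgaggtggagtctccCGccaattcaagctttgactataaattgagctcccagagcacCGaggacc
Mirg: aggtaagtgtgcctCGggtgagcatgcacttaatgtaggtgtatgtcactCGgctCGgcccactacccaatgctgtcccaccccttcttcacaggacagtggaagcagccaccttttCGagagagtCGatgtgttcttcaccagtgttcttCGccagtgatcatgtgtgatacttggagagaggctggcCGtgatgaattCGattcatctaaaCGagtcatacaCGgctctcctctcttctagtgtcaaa

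In the Igf2r domain on chromosome 17 a single gene was marked. Its long noncoding RNA Airn, expressed from the paternal chromosome, is known to silence Igf2r in cis and, in the placenta, the cation transporter genes Slc22a2 and Slc22a3. Slc22a3, at chr17:12419972-12507704, had a peak in 12 libraries and Igf2r, Airn and Slc22a2 in 0. The region chr17:12502781-12511921 lay over the start of Slc22a3, at the end facing Igf2r. The nearer end of Igf2r, which is not the end with its start, lies 175 kb further on. The region was called with a single peak in each library. The covered share was 6.6%, 5.8% and 5.6% in 129 with vitamin C and 5.5%, 3.3% and 6.3% in 129 without it. In B6 it was 4.1%, 3.1% and 3.8% with vitamin C and 1.1%, 3.2% and 4.0% without it. The gene is 87.7 kb long, so the small shares stand for peaks of 1.02 to 7.80 kb. Apart from replicate 2 of 129 without vitamin C, the libraries of 129 all lay above those of B6. The Slc22a3 stretch (minus strand, chr17:12507705-12507954) holds 5 CG and that of Slc22a2 (plus strand, chr17:12583939-12584188) holds 6, and the pair is shown as the most and least marked transporter genes of the domain.
Slc22a3: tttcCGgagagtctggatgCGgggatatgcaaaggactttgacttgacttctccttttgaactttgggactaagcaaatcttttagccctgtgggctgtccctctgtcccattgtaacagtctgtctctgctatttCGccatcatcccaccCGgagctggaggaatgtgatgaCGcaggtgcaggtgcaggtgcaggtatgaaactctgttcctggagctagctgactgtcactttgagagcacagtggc
Slc22a2: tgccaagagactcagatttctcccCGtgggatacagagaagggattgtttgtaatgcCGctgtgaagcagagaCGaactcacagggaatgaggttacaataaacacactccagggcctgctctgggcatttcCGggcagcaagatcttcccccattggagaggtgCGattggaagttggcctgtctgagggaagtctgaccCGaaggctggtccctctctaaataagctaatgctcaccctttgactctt

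Grb10, an adaptor protein that restrains growth, was marked in 7 libraries, and its neighbour Ddc, which is imprinted in the heart, in 0. The region chr11:12017628-12045228 lay over both listed starts of Grb10 (chr11:11930499-12037428). Peaks covered 19.1%, 0% and 0.7% of the window in 129 with vitamin C, 17.5%, 0% and 13.1% in 129 without it, 0%, 1.0% and 13.7% in B6 with vitamin C, and 0.6%, 0% and 0% in B6 without it. High and low libraries occurred in both backgrounds, and the widest peaks, of 27.6 and 24.6 kb, were those of replicate 1 in each 129 group.

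Of the genes that stand alone in the list, Zdbf2, Rasgrf1 and Sfmbt2 were marked in nearly all libraries. Zdbf2, a paternally expressed zinc finger gene at chr1:63200358-63314576, carried the widest peaks of any member, up to 37.4 kb. They lay inside the gene, in chr1:63245704-63283601, over the second of its listed starts in 6 libraries and never over the first. Its covered share was 32.2%, 23.4% and 11.1% in 129 with vitamin C and 30.8%, 2.9% and 24.7% in 129 without it. In B6 it was 4.1%, 8.8% and 23.3% with vitamin C and 0.8%, 0% and 10.6% without it. High and low libraries occurred in each background, and the ranges of the diet groups overlap in 129 and in B6.

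Rasgrf1, an activator of Ras, was marked at its low-coordinate end, chr9:89904616-89915796, by 1 peak in each of the 12 libraries. The share of the window under it was 5.5%, 4.9% and 5.1% in 129 with vitamin C, 5.9%, 0.1% and 6.1% in 129 without it, 3.2%, 2.2% and 5.9% in B6 with vitamin C and 0.1%, 4.4% and 5.9% in B6 without it. These groups overlap, and 2 libraries without vitamin C had only the edge of a peak inside the window.

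Sfmbt2, itself a Polycomb group gene and among the genes whose imprint is known to start from maternal H3K27me3, was marked over its starts at chr2:10365291-10379370. Peaks covered 4.2%, 3.2% and 4.1% of its window in 129 with vitamin C, 4.4%, 1.2% and 4.2% in 129 without it, 1.2%, 1.9% and 3.2% in B6 with vitamin C and 0%, 0% and 2.1% in B6 without it. The libraries with no peak at Sfmbt2 were replicates 1 and 2 of B6 without vitamin C. Gab1, which is known for the same kind of imprint in the placenta, had no peak in any library.

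The remaining marked genes had few peaks. Plagl1, a zinc finger gene that restrains the cell cycle, had a peak over its start in 3 libraries of 129 and 1 of B6, 2.04 to 9.49 kb wide. Gnas, the gene of the stimulatory G protein subunit, had peaks at 3 separate places in 4 libraries, 3 of them of B6. Inpp5f, an inositol phosphatase gene, had a single peak of 0.146 kb in B6 without vitamin C replicate 1. It ranked at the 10.4th percentile of its list by total signal and at the 93.1st by maximum signal.

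The 29 genes with no called peak include all 7 noncoding RNA genes of the list (H19, Kcnq1ot1, Meg3, Rian, Mirg, Airn and Peg13). They include each member of the Peg3 domain (Peg3, Zim1 and Usp29), of the Peg10 domain (Peg10 and Sgce) and of the Snrpn domain (Snrpn, Ndn, Magel2, Mkrn3 and Ube3a). The Snrpn domain, taken from its first to its last listed member, spans 3193 kb. It held 3 peaks outside its members, each of 1 library and none wider than 1.15 kb. The others are Tssc4, Cd81, Rtl1, Mest, Ddc, Igf2r, Slc22a2, Nnat, Mcts2, Impact, Gab1 and Commd1. Their median length was 30.7 kb, beside 101 kb for the 8 most marked genes. By expressed allele, 3 of 17 maternally and 5 of 26 paternally expressed genes were among those 8. By the site of imprinting, 3 of 7 genes imprinted in the placenta (Ascl2, Slc22a3 and Sfmbt2) and 5 of 35 imprinted in the embryo were among them.

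A domain was taken from its first to its last listed member with 1 kb at each end, so neighbours beyond these were not counted. Summed over these spans, peaks covered a median of 25.6 kb per library in the Kcnq1 domain (0 to 98.6 kb) and 23.8 kb in the Dlk1-Dio3 domain (4.11 to 43.1 kb). The Igf2-H19 domain had a median of 11.2 kb (0 to 15.6 kb), the Igf2r domain 5.10 kb and the Grb10 domain 0.727 kb (0 to 20.8 kb). The Snrpn domain had a median of 0 kb and at most 2.66 kb, and in the Peg3 and Peg10 domains no library had any.

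The width of the widest peak at a gene differed between members and backgrounds. Over the libraries that hold a peak, its median was 28.0 kb in 129 and 4.72 kb in B6 at Zdbf2, 15.1 and 5.56 kb at Igf2, and 14.6 and 4.22 kb at Dlk1. At Dio3 it was 13.4 and 10.9 kb and at Rasgrf1 9.51 and 7.23 kb. Of the 13 genes with a peak in both backgrounds, the median was wider in 129 at 13, and the 5 given here were chosen after their values were seen. As a percentile of width within each list, the median was higher in 129 at Zdbf2 (98.0 against 76.7), Igf2 (89.7 against 82.2) and Dlk1 (90.3 against 87.8). It was lower in 129 at Dio3 (84.9 against 91.2) and Rasgrf1 (70.1 against 87.1). The median of the whole list ran from 4.10 to 8.45 kb in 129 and from 1.32 to 4.89 kb in B6, and its part in these widths was not tested.

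Signal was compared only as a rank within each list, because the deposited signal values are not scaled to a common depth. For each gene and library the rank is the percentile of total signal of its strongest peak, where 100 is the strongest peak of the list. Dio3 had the highest median rank, at the 90.9th percentile over its 12 libraries. It reached 99.4 in B6 with vitamin C replicate 2, as peak 31 of 4726, and was lowest at 46.1 in B6 without vitamin C replicate 2. Ascl2 followed at a median of 83.9 and had the narrowest range among the 8, from 67.1 to 90.8. Zdbf2 (83.3), Dlk1 (82.6), Igf2 (82.3), Rasgrf1 (80.9), Sfmbt2 (78.0) and Kcnq1 (74.3) had medians close to each other, with ranges that overlap.

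Slc22a3, though marked in all 12 libraries, ranked lower, at a median of 59.8 and down to 3.83. Phlda2 (50.2) and Cdkn1c (49.2) lay in the middle of their lists, and Plagl1 (13.0), Inpp5f (10.4) and Gnas (8.07) near the bottom. Within a library the median rank of the marked members lay between 29.0 and 86.1, and that of all marked coding genes between 52.9 and 62.3. The members' median was the higher in 9 libraries. The 3 in which it was lower were the 2 short lists and B6 without vitamin C replicate 1.

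**Figure D4:**
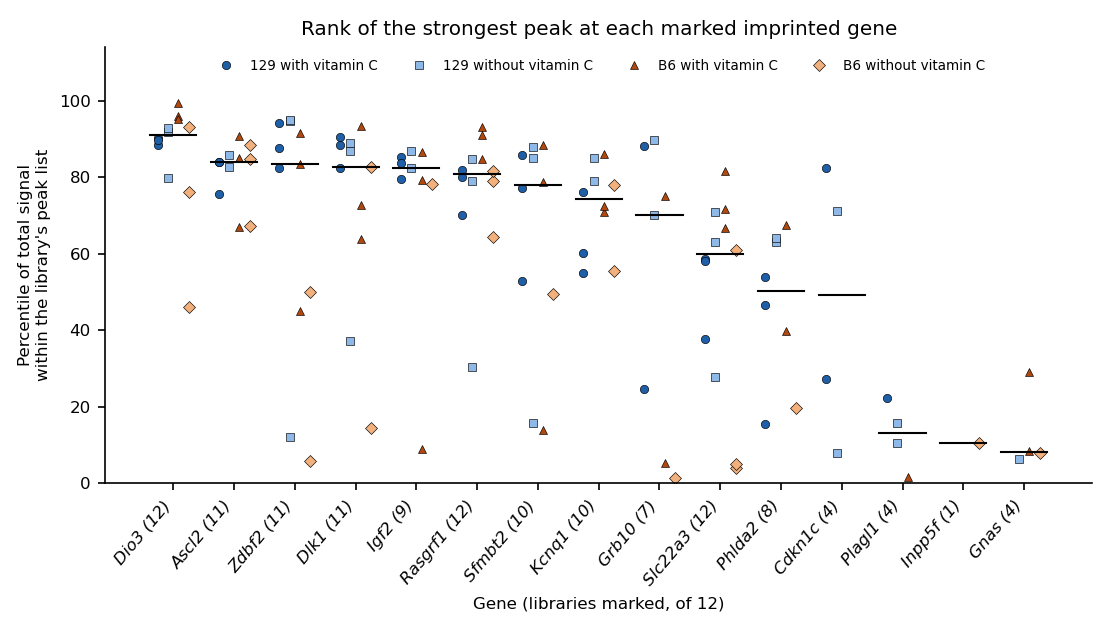
Percentile of total signal, within the library's own list, of the strongest peak at each marked gene, by group (symbols) with the median over the libraries that hold a peak (line). Dio3 has the highest median, 90.9, and the points of Plagl1, Inpp5f and Gnas lie at or below 29.1.

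Of the 44 genes, 36 had an entry in the promoter table, with 54 starts in all. The 250 bases before the start were under a peak in at least 6 libraries at 13 of these starts, which belong to 9 genes. Those 13 held a median of 15 CG, and the 35 member starts under a peak in 0 libraries a median of 10. Over all 32851 promoters of the table a stricter threshold was used. The median was 15 for the 844 under a peak in at least 10 libraries and 5 for those under a peak in 0. The member starts that met this threshold were those of Ascl2 (19 CG), Dlk1 (8), Dio3 (21), Rasgrf1 (21) and Slc22a3 (5). The CG counts of the 13 member starts ran from 1, at a start of Igf2, to 26, at the second start of Zdbf2, and these starts thus included some poor in CG. Besides the 4 genes shown, Igf2, Phlda2, Rasgrf1, Sfmbt2 and Zdbf2 had such a start.

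A pair of motifs tied to imprinting was searched on both strands of the same 250 bases. TGCCGC, the motif bound in its methylated form by ZFP57, a protein that maintains imprints, was found at 0 of the 13 marked member starts and at 7 of the 35 unmarked ones, beside 8.68% of all promoters. Of the 6 member starts under a peak in 1 to 5 libraries, 1 held it, that of Plagl1. The 7 include a pair of Mest starts whose windows, beginning at chr6:30737800 and chr6:30737803, nearly coincide, so the starts are not independent. Over all promoters the motif was at 13.9% of those under a peak in at least 10 libraries and at 8.00% of those under a peak in 0. This is the opposite order to the members, whose marked starts were counted from 6 libraries on. GCCATNTT, a motif of the factor YY1, was found at 0 of the 13 and at 3 of the 35, beside 3.91% of all promoters, 0.948% of those under a peak in at least 10 libraries and 4.24% of those under a peak in 0. These counts describe letters in these windows only.

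Vitamin C was compared within each background. In B6 the imprinted genes with a peak numbered 8.00 ± 3.00 per library without and 11.3 ± 1.53 with vitamin C, and in 129 they numbered 11 ± 4.36 without and 11.7 ± 1.15 with it (SD, n = 3 each). The ranges overlap in both backgrounds. The lists of B6 held 1840 ± 946 peaks without and 3814 ± 1244 with vitamin C (SD, n = 3 each). In lists cut to the same length of 748 peaks by total signal, the difference in B6 was -0.333 genes instead of -3.33. Without 129 without vitamin C replicate 2, the difference in 129 was 1.83 genes instead of -0.667.

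The covered share was tested for diet at all 6351 genes marked in at least 1 library, by exact permutation of the diet labels within background, two-sided, with 400 relabellings and a smallest possible p of 0.005. None passed an adjusted p of 0.05 (0%, Benjamini-Hochberg), and 102 had an unadjusted p under 0.05. All 102 were less covered without vitamin C, which is 1.61% of the genes tested. Of the 15 marked imprinted genes, 0 were among them. The smallest exact permutation p of a member was that of Slc22a3, at 0.17 with an adjusted p of 1. Its covered share was 3.91% without and 4.85% with vitamin C, as means over both backgrounds.

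The direction leaned one way among members as among other genes. The covered share was lower without vitamin C at 13 of the 15 members and at 5305 of the 6351 genes, with median differences of -0.985 and -2.41 percentage points. Phlda2 (-26.0 points), Dlk1 (-25.8), Dio3 (-23.4) and Igf2 (-22.4) had the largest differences, and none of them passed the test. Each value is smaller than the standard deviation within at least 1 of its groups. Leaving out 129 without vitamin C replicate 2 turned the sign at Cdkn1c, Kcnq1, Grb10, Plagl1 and Rasgrf1, to 11.2, 1.05, 2.01, 0.47 and 0.28 points.

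Within 129 alone, 3.78% of the genes had diet groups that did not overlap, and 0 of the 15 members did. With 129 without vitamin C replicate 2 left out, 609 of 6351 genes did not overlap, among them Kcnq1, Rasgrf1 and Sfmbt2, all more covered without vitamin C. With replicate 1 of the same group left out, 529 of 6315 genes did not overlap, among the members Dlk1. With replicate 3 left out, 482 of 6263 did not, among the members Slc22a3. Within B6, the groups did not overlap and the share was lower without vitamin C at 2.41% of the genes, among the members at Kcnq1 alone. Its covered share in B6 was 0.61% ± 0.59 without and 3.22% ± 3.17 with vitamin C (SD, n = 3 each). With 20 relabellings the smallest possible exact permutation p within 1 background is 0.1. With B6 without vitamin C replicate 4 left out, 1380 of 6345 genes did not overlap, and the members were Igf2, Kcnq1, Dlk1, Dio3, Zdbf2 and Sfmbt2. With B6 with vitamin C replicate 1 left out, 467 of 6348 genes did not overlap, and the members were Kcnq1 and Grb10. Kcnq1 no longer stood apart where the window was 2.5 kb, where only the gene ends were used or in lists of equal length.

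Whether the diet effect differed between 129 and B6 was tested with the same 400 relabellings. Of the 6351 genes, 0.0787% had an unadjusted p under 0.05 and 0 an adjusted one. None of the members was among them, and the smallest exact permutation p was 0.27, at Kcnq1. Leaving out 129 without vitamin C replicate 2 brought Kcnq1, and no other member, under an unadjusted 0.05.

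The backgrounds were compared over both diets by exact permutation of the background labels within diet. At an adjusted p of 0.05 no gene passed (0%), and the smallest adjusted value was 0.294. At an unadjusted p under 0.05, 827 genes passed, of which 823 were less covered in B6 (13.0% of those tested). Igf2, Slc22a3 and Sfmbt2 were the 3 members among them, 20.0% of the 15. The narrower peaks of the B6 lists move with this comparison, and their part in it was not tested.

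Igf2 had a covered share of 66.8% ± 32.8 in 129 and 26.7% ± 28.8 in B6 (SD, n = 6 each), with an exact permutation p of 0.035 and an adjusted p of 0.331. Slc22a3 had 5.54% ± 1.15 in 129 and 3.22% ± 1.11 in B6 (SD, n = 6 each), with an exact permutation p of 0.01 and an adjusted p of 0.311. Sfmbt2 had 3.54% ± 1.21 in 129 and 1.39% ± 1.25 in B6 (SD, n = 6 each), with an exact permutation p of 0.02 and an adjusted p of 0.311. Each of these genes overlapped between the backgrounds.

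Cdkn1c differed more in level, at 63.0% ± 49.5 in 129 and 0% in B6 (SD, n = 6 each), but 2 of the 129 libraries were at 0 and its exact permutation p was 0.08. Zdbf2 had 20.9% ± 11.6 in 129 and 7.91% ± 8.63 in B6 (SD, n = 6 each), with an exact permutation p of 0.055. The means of Ascl2 lay closest among the highly covered genes, at 83.3% ± 40.8 in 129 and 83.0% ± 23.7 in B6 (SD, n = 6 each). This rests on replicate 2 of 129 without vitamin C, at 0% where the other 5 libraries of 129 were at 100%, and without it the difference, B6 minus 129, moved from -0.37 to -17.0 points. Of the 15 members 13 were less covered in B6, and the exceptions were Gnas and Inpp5f. Over all genes tested 4682 of 6351 were, with a median difference of -3.57 points beside -4.22 for the members.

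The number of members with an unadjusted p under 0.05 for background moved with the lists used, as did that of all genes. It was 6 when replicate 2 of 129 without vitamin C was left out, where 1593 of 6351 genes had such a p. It was 5 when replicate 4 of B6 with vitamin C was left out, beside 1289 of 5644 genes. It was 1 when replicate 1 of B6 without vitamin C was, beside 482 of 6230 genes, and 1 when replicate 2 was, beside 533 of 6350. Slc22a3 was among them in each of the 12 fits that left out 1 library. In equal lists of 748 peaks its difference was 0.525 points in place of -2.32, B6 minus 129, with an exact permutation p of 1. The 0.525 rests on B6 without vitamin C replicate 2 alone, the list that was not cut, where the peak ranked at the 4.88th percentile. In the other lists the Slc22a3 peak was not among the 748 strongest, so this setting cannot show a reversal. As marked or not, the difference of Slc22a3 was 0.

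**Figure D5:**
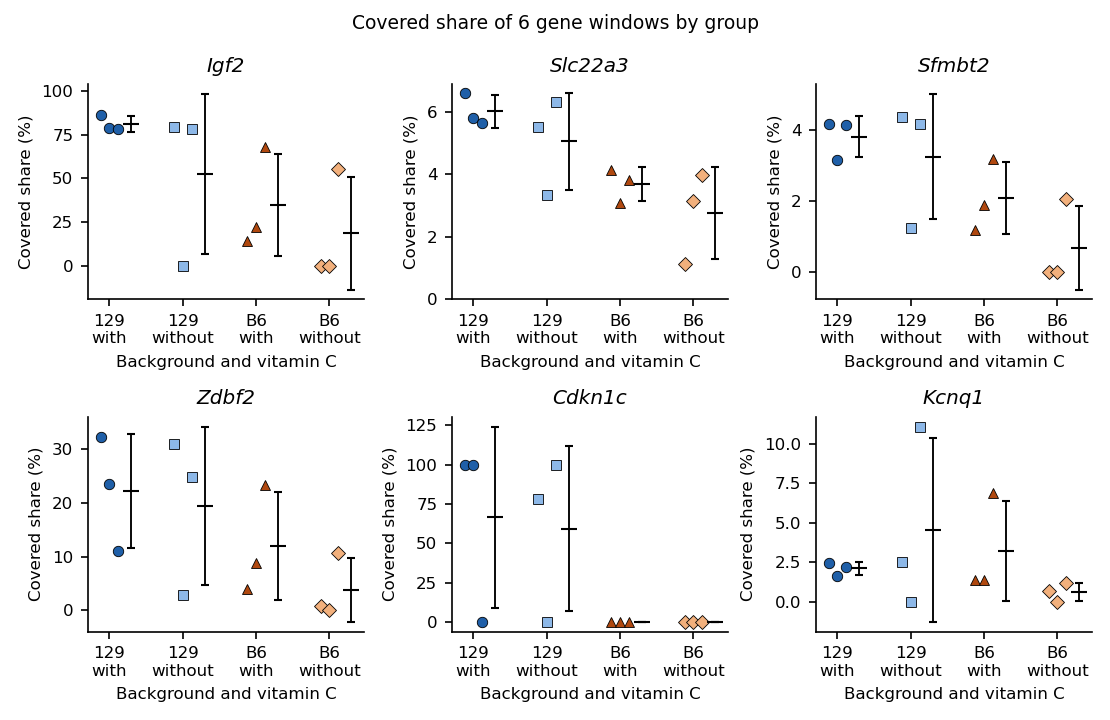
Covered share of the window, in percent, of 6 imprinted genes by background and vitamin C, with 3 libraries per group (symbols) and the mean with SD beside them. Igf2, Slc22a3 and Sfmbt2 had the smallest p for background, Cdkn1c has no peak in any B6 library, and in Kcnq1 the B6 libraries without vitamin C (0% to 1.2%) lie below those with it (1.4% to 6.9%).

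Other genes of the same biology were described from fixed lists. Of 60 further imprinted genes or neighbours in the same domains, 4 (6.67%) were marked in at least 10 libraries, near the 5.93% of all coding genes. The 4 were Cpeb1 and Kcnk9 in 11 and Begain and Gabra5 in 10. Ano1 followed in 8 and Cobl, Klf14, Osbpl5 and Slc22a18 in 7 each. Kcnk9 encodes a potassium channel beside Peg13, and Begain lies beside Dlk1. Only the 13 of the 60 with a peak in at least 1 library could be tested for diet, and 0 of them had an unadjusted p under 0.05.

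Of 22 genes of the Igf2 and insulin pathway, 0 were marked in at least 10 libraries. Igfbp6, which binds Igf2, was marked in 9, with 6 of 6 libraries given vitamin C and 3 of 6 not given it among them. Its exact permutation p for diet was 0.1. Over all genes of the table, 4182 were marked in more libraries with vitamin C and 646 in more libraries without it. The receptors Igf1r and Insr and the growth factor Igf1 were marked in 0. Of 20 factors that maintain imprints, Dnmt3a, a DNA methyltransferase, was marked in 5 libraries and the other 19 in 0. The diet test covered only the genes with a peak, 7 of the pathway and 1 of the factors, and gave 0 genes in either direction.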

How the data were processed

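CUT&Tag libraries of H3K27me3 from 12 single headfolds were used. Per the submitters' processing notes, the authors used cutadapt, Bowtie2, Picard and SEACR on the build mm10. Which settings were used, and whether IgG libraries set the peak threshold, is not given in the sources used here. The lists deposited by the authors give the peaks of 1 library each in 6 columns, with position, total signal and maximum signal. Signal was deposited in whole numbers that show no scaling between libraries, so it served only to rank peaks within a list. Depth, and with it the precision of each list, is unknown.

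Peaks were joined to gene windows from the RefSeq table of GRCm38.p6, in 1-based coordinates. Promoter sequences came from the RefSeq promoter table of the same build, cut to the 250 bases before the start. The members without an entry there are H19, Cdkn1c, Kcnq1, Rtl1, Peg10, Sgce, Peg13 and Impact. The list symbol Zfp264 had no match and was left out. The members, lists, rules and tests were chosen with earlier results of these data known. Values per library are given for members marked in at least 6 libraries, or whose marked libraries differ by 3 or more between diets or backgrounds, and the rest by counts and ranges.

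The covered share was tested gene by gene with exact permutation, two-sided, and Benjamini-Hochberg adjustment over all 6351 genes marked in at least 1 library. The embryos are the replicates, and the 3 B6 embryos of 1 pregnancy are not fully independent. The permutation test was first run on the covered shares shuffled within background, with a shift larger than any real share added to some genes. This checked the code and not the power at differences of the size seen here. Alternatives were other windows, peak filters, equal lists, other sets of genes tested, marked or not in place of the covered share, other permutation strata, pregnancies averaged and each library left out. Leaving out both short lists, or both lists of narrow peaks, was chosen after seeing the data. The software was pandas 2.3.3, NumPy 2.4.6, SciPy 1.17.1 and Matplotlib 3.10.9 under Python 3.11.15.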

Additional observations from a re-analysis of the deposited data

How the results depend on the processing

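Depth is unknown, so how far it limits the lists could not be measured, and shorter lists bear on every count. The 8 genes marked in at least 10 libraries numbered 3 (Ascl2, Dio3 and Rasgrf1) both in equal lists of 748 peaks and among the peaks whose maximum signal reached the median of their list, where the share of all coding genes was 2.15% and 2.78%. The count was 6 to 10 under the other alternatives. Where libraries were left out, the threshold of 10 fell by as many. The count of genes marked in at least 1 library was 11 to 15. The difference in marked genes per library in B6 was -0.333 in equal lists, and leaving out 1 library gave -4.83 to -1.83.

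Members with an unadjusted p under 0.05 for background numbered 1 at the gene ends only, with permutation within diet and sex, and without both lists of narrow peaks. They numbered 0 for marked or not and for peaks above the median maximum, and 1 to 6 with 1 library left out. Members whose diet groups do not overlap in B6 numbered 0 with windows of 2.5 kb, at the gene ends, in equal lists and for marked or not, 2 with peaks above the median maximum, and 1 to 6 with 1 library left out. In 129 they numbered 3 without both short lists and 0 to 3 with 1 library left out. For the difference of the diet effects the count was 1 without both short lists and 0 to 1 with 1 library left out.

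No single gene passed an adjusted p of 0.05 in any of 26 settings, and 41 of 702 single values changed sign, in percentage points unless stated. For diet, leaving out 1 library gave -20.3 to 11.2 at Cdkn1c, -0.993 to 1.58 at Gnas, -2.37 to 2.58 at Grb10, -1.73 to 1.05 at Kcnq1, -2.04 to 1.72 at Plagl1 and -1.29 to 0.28 at Rasgrf1. Without both short lists the values were 11.2 at Cdkn1c, 2.06 at Grb10, 1.20 at Kcnq1, 0.47 at Plagl1 and 0.040 at Rasgrf1. With no extension Kcnq1 was at 0.015, at the gene ends Gnas at -4.96 and Plagl1 at 0.60, with peaks above the median maximum Phlda2 at 16.7 and Grb10 at 3.02, and in equal lists Slc22a3 at 0.525. For background, leaving out 1 library gave -17.0 to 7.96 at Ascl2 and -2.54 to 0.23 at Kcnq1. Ascl2 was at 10.5 with no extension, 14.8 without both lists of narrow peaks and 0.167 as a share of libraries marked, Rasgrf1 at 0.262 without the lists of narrow peaks, and Slc22a3 at 0.525 in equal lists. Both values of Slc22a3 in equal lists rest on B6 without vitamin C replicate 2 alone, whose list was not cut. The cause of the other changes was not tested. No paired analysis was possible because the replicate numbers were given in accession order and name no shared litter, day or animal. Libraries of the same number and background do share sex and have adjacent library numbers, and pairing by these was not tested.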
